A study of Gallus gallus with 54 samples.

Results

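Amino acid transporter genes were described in the granulosa cells (GCs) and theca cells (TCs) of chicken ovarian follicles. The members were the genes of the solute carrier families SLC1, SLC3, SLC6, SLC7, SLC36, SLC38 and SLC43, taken by gene symbol. A total of 50 symbols matched, of which SLC38A7 was left out because it had 2 loci, so that 49 of the 26619 gene loci in the count table were members. SLC6 gave 17 members, SLC7 11, SLC38 9, SLC1 6, and SLC3, SLC36 and SLC43 gave 2 each. The rule reads symbols only, although it was set with earlier results of these data known.

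The libraries were RNA-seq of White Leghorn hens aged 35 to 40 weeks, with 10 hens fed in each of 3 treatment groups. The blank group (NC) was fed water, the bic group 15 mg bicalutamide, an androgen receptor antagonist, and the mes group 100 mg mestanolone, an androgen receptor agonist. Feeding lasted 4 days and was followed by 1 day without the drug, so the libraries show follicles after withdrawal. GCs and TCs were taken from small yellow follicles of 6 mm (syf 6 mm), which have not yet been selected into the hierarchy, from F5, the smallest of the selected follicles sampled, and from F1, the largest follicle and in untreated hens the next to ovulate. By the study's methods, treated hens with surplus large follicles could have more than 1 follicle labelled F1, which bears on the F1 comparisons with bic and mes. With 3 libraries in each of 18 groups there were 54 libraries. The study's sequencing list placed NC GC F1 replicates 1 and 2 under 1 hen, likewise bic GC F1 replicates 1 to 3 and bic TC F1 replicates 1 and 2. Libraries of 1 hen were summed and counted as 1 sample, since their counts differed less than those of other pairs within groups. Their chi-square per degree of freedom was 4.65 to 5.77 over 5 pairs, against 11.1 to 53.7 over the 49 other pairs. Divided by 4, these ranges were 1.16 to 1.44 and 2.78 to 13.4. Undivided, both lay above 1, and 1 read pair can add more than 1 count. NC GC F1 therefore held 2 hens, bic GC F1 1 hen and bic TC F1 2 hens.

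Total counts ran from 33513156 to 65054906 per GC library and from 39171088 to 59683453 per TC library. The layers were checked with marker genes. The 10 theca markers summed to 8902.7 to 12170.3 FPKM in TC libraries, and to 7.27 to 203.4 FPKM in all GC libraries but 4. The 4 were NC syf 6 mm replicates 1 and 3 (2514 and 2052 FPKM), bic syf 6 mm replicate 1 (1921 FPKM) and bic F5 replicate 2 (10654 FPKM), and the last of these correlated best with the NC TC syf 6 mm libraries (Spearman's rho 0.913, against 0.731 with its own group). Granulosa markers were lower in NC TCs than in NC GCs but not absent. The 6 granulosa markers summed to 416.7 to 512.0 FPKM in NC TCs of 6 mm against 680.0 to 846.6 FPKM in the GCs. At F5 the sums were 228.0 to 1032.3 against 2486.1 to 2879.5 FPKM, and at F1 242.3 to 706.0 against 1936.0 to 2219.7 FPKM. Unlike the sum, AMH overlapped between layers at 6 mm, at 191 to 278 FPKM in NC TCs against 207 to 265 FPKM in the GCs. INHA, which encodes the inhibin alpha subunit, stood at 288 and 601 FPKM in NC TC F5 replicates 2 and 3 and at 353 FPKM in NC TC F1 replicate 1, against 0.337 to 2.56 FPKM in the other NC TC libraries. The part of these libraries in the results was not tested beyond the fits without them. In bulk RNA, fewer cells of a type and less RNA per cell cannot be told apart.

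Cells take up amino acids through membrane carriers that differ in their substrates and driving ions. SLC1, SLC6 and SLC38 carriers mostly use the sodium gradient, SLC36 carriers move amino acids with protons, and many SLC7 carriers are light chains that exchange amino acids once bound to a heavy chain, SLC3A1 or SLC3A2. Not every member carries amino acids: SLC6A8 carries creatine, SLC6A4 serotonin, SLC6A2 noradrenaline, SLC43A3 purine nucleobases and SLC6A6 taurine, an amino sulfonic acid. The functions given here were mostly established in mammals. In the ovary the hen's follicle fills its oocyte with yolk, and the granulosa and theca layers lie between the oocyte and the blood supply.

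Levels are given in FPKM (fragments per kilobase of transcript, scaled to the mapped fragments of the library), which allows genes to be compared per length. Of the 49 members, 34 reached a mean of 1 FPKM in at least 1 group and 15 did so in every group. The 15 that stayed under 1 FPKM in every group mean included SLC1A2, SLC6A5, SLC6A7, SLC6A11, SLC6A12, SLC6A18, SLC6A20, SLC7A9, SLC7A11, SLC7A13, SLC7A14, SLC38A3, SLC38A4 and SLC38A8. In a single library between 19 and 28 members reached 1 FPKM.

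In GCs the highest mean over the 27 libraries was that of SLC38A2, a carrier of glutamine and other small neutral amino acids, at 71.3 FPKM (range 20.5 to 268 FPKM). It was followed by SLC6A8 at 67.5 FPKM, SLC3A2 at 62.5 FPKM, SLC38A10, a little-studied relative of SLC38A2, at 49.0 FPKM, SLC7A5 at 39.6 FPKM, SLC36A1 at 31.6 FPKM, SLC6A6 at 30.5 FPKM and SLC1A4, an exchanger of alanine, serine and cysteine, at 23.8 FPKM. In TCs SLC6A8 led with 98.2 FPKM (71.5 to 144.6 FPKM), ahead of SLC38A10 at 55.0 FPKM, SLC38A2 at 42.0 FPKM, SLC3A2 at 31.2 FPKM, SLC6A6 at 22.9 FPKM, SLC7A5 at 19.0 FPKM, SLC43A3 at 17.3 FPKM and the glycine carrier SLC6A9 at 16.2 FPKM. The ranges over libraries overlapped between all neighbours in both orders. The spread was unequal among them: in GCs SLC6A6 ran from 0.192 to 174 FPKM and SLC7A5 from 3.78 to 118 FPKM, while SLC38A10 stayed between 17.5 and 83.2 FPKM.

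**Figure D1:**
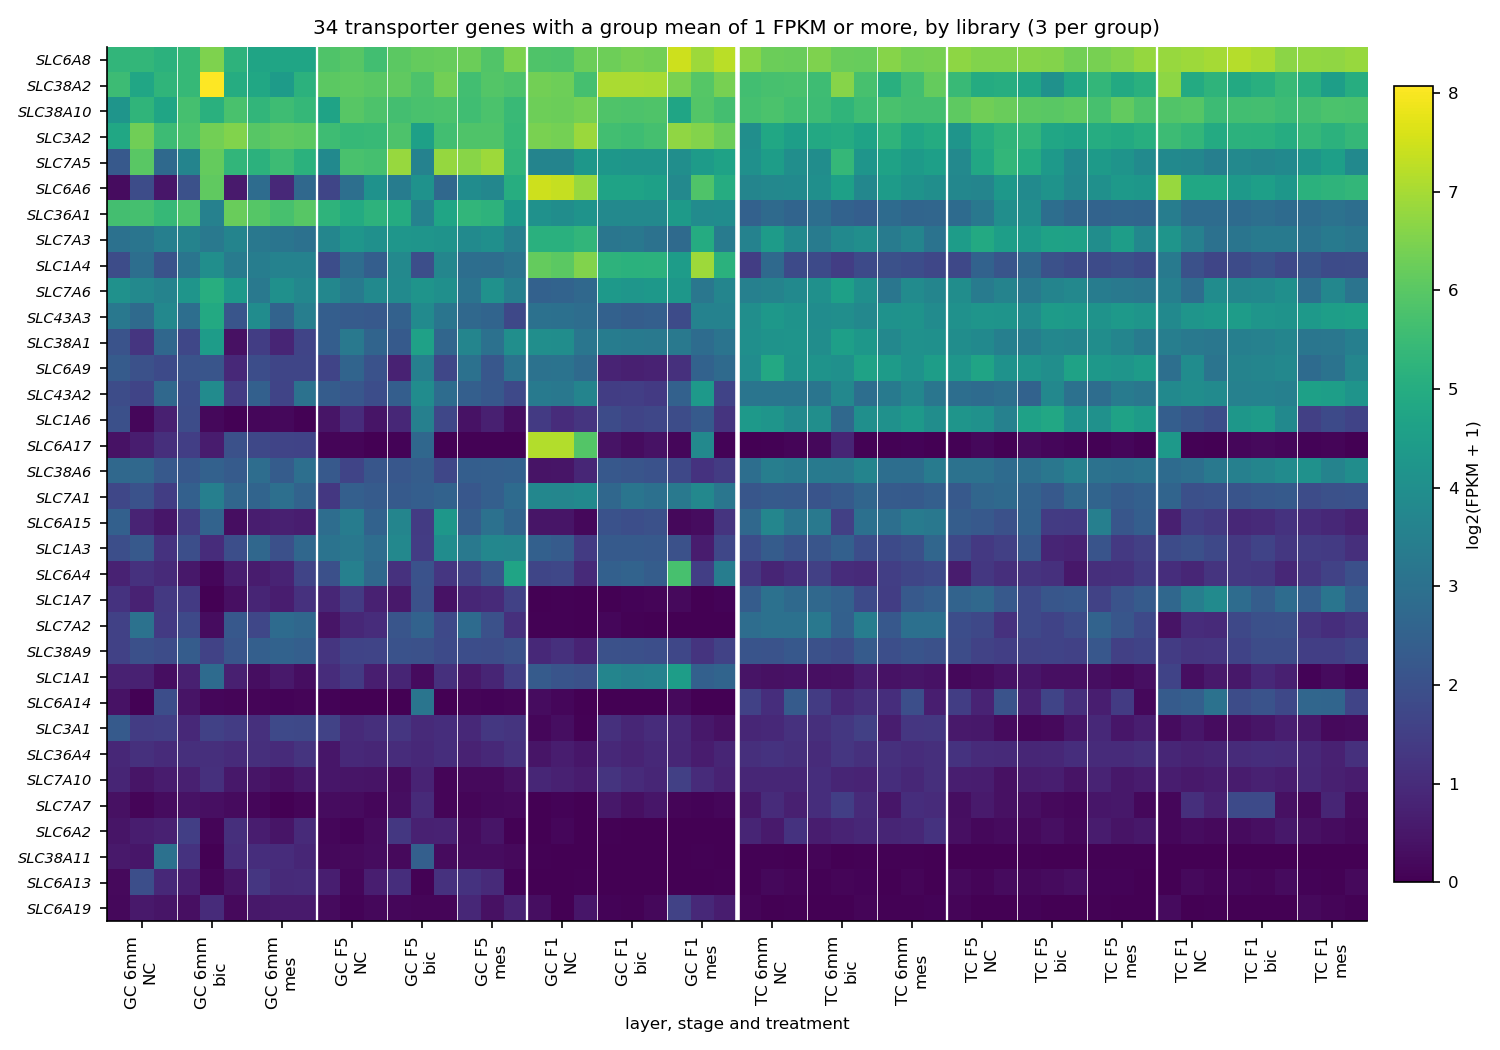
Level of the 34 members that reached a group mean of 1 FPKM, as log2(FPKM + 1) by colour, with genes as rows and the 54 libraries as columns, grouped by layer, stage and treatment (3 libraries a group, in replicate order). SLC1A4, SLC6A6 and SLC6A17 are bright in the 3 NC GC libraries of F1, SLC1A6 and SLC1A7 are brighter in TCs, and SLC36A1 is brighter in GCs.

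Several members lie side by side in the genome (build Gallus_gallus-5.0), a property the choice by symbol did not use. SLC38A1, SLC38A2 and SLC38A4 lie on chromosome 1 between positions 30930595 and 31132280, all on the minus strand, yet their levels differed: SLC38A2 averaged 71.3 FPKM in GCs, SLC38A1 7.76 FPKM, and SLC38A4 stayed under 1 FPKM in every group mean. SLC3A2 was annotated on an unplaced scaffold as a gene model of 2688 bp. The library kit did not keep the strand, and 18 of the 49 members overlap another annotated gene, among them SLC1A4, SLC1A7, SLC3A1, SLC6A6, SLC7A1, SLC7A2, SLC7A5, SLC38A1 and SLC38A2, so reads of such neighbours cannot be told apart. SLC1A7 shares 1518 bp with PODN and SLC3A1 shares 11533 bp with PREPL.

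Summed over all members, the level in NC GCs was 260.7 to 374.7 FPKM at syf 6 mm, 316.7 to 418.1 FPKM at F5 and 724.9 to 817.7 FPKM at F1. The 3 F1 libraries lay above all the others of NC GCs. A large part of this rise lay in SLC6A6, SLC6A17 and SLC1A4. At F1 they were at 113 to 174, 59.7 to 139.9 and 64.9 to 91.8 FPKM. At F5 they were at most at 16.4, 0.0768 and 6.33 FPKM. Of the 37 members tested from F5 to F1 in GCs, 20 had a higher and 17 a lower fitted value at F1. The sum without these 3 genes is not given. In NC TCs the sum was 379.7 to 431.1 FPKM at syf 6 mm, 405.4 to 437.1 FPKM at F5 and 398.8 to 588.0 FPKM at F1, and these ranges overlapped. The highest TC value was that of F1 replicate 1, the library with INHA at 353 FPKM.

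The stages were compared within each layer of NC hens in edgeR (quasi-likelihood test), and a gene was called when its adjusted p was at most 0.05 and its mean reached 1 FPKM in a compared group. From F5 to F1, 14 of the 37 members tested in GCs were called, 10 higher and 4 lower at F1, a share of 37.8% against 29.6% of all 15663 genes tested. DESeq2 called 18. Scaled to library totals without TMM factors the split was 8 higher and 6 lower. The median log2 fold change of the members was 0.71, against -0.15 over all genes, and the fitted values lay 0.47 above the log2 ratios of FPKM. No called member had the other sign in FPKM. From syf 6 mm to F5, 5 of 36 members were called, all higher at F5 (13.9%, against 9.11% of all genes). Here the fitted values lay 0.33 above the log2 ratios of FPKM, and without TMM factors 1 member was called. Between these GC groups the sum of 6 oocyte markers went from 24.6 to 139.0 FPKM, with 4 to 5 of them detected, to 0.265 to 2.30 FPKM, with 0 detected, and its part in the result was not tested. On simulated data this comparison gave more false calls than its threshold allows. In TCs 2 of 36 members were called from syf 6 mm to F5 (1 higher and 1 lower, 5.56% against 7.63% of all genes) and 2 of 36 from F5 to F1 (1 higher and 1 lower, 5.56% against 6.2%). In all 21 members were called between stages, 18 in GCs and 4 in TCs, and SLC43A2 was the 1 gene called in both. The matching counts over all genes are not given.

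The largest rise from F5 to F1 in GCs was that of SLC6A17, a sodium-dependent carrier of neutral amino acids known from synaptic vesicles in mammals (chromosome 26, 1337426 to 1352570). Its level was 0.0752, 0.0768 and 0 FPKM in the 3 F5 libraries and 139.5, 139.9 and 59.7 FPKM in the F1 libraries, of which the first 2 came from 1 hen. At syf 6 mm it was 0.326, 0.556 and 1.12 FPKM. All F1 libraries of GCs thus lay far above those of the earlier stages. The fitted log2 fold change was 11.36 (SE 1.24, adjusted p = 0.00265), a size that rests on the few counts at F5. In NC TCs of F1 the level was 19.2, 0.0299 and 0.0155 FPKM, so that 1 library held all but a trace, again replicate 1 with INHA.

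SLC1A4 (chromosome 3, 9933016 to 9965656) was at 2.74, 6.33 and 4.37 FPKM in the F5 GCs and at 70.3, 64.9 and 91.8 FPKM in the F1 GCs. Its log2 fold change was 4.62 (SE 0.41, adjusted p = 0.00169), the smallest p of the members in this comparison. In TCs it was at 2.38, 4.81 and 3.34 FPKM at F5 and at 8.75, 3.02 and 2.2 FPKM at F1. The change from F5 to F1 was larger in GCs than in TCs by 4.11 on the log2 scale (SE 0.82, adjusted p = 0.00871).

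SLC6A6, the taurine transporter (chromosome 12, 10969748 to 11019344), had the highest mean of any member in NC F1 GCs. It was at 0.192, 2.67 and 0.409 FPKM at syf 6 mm, at 2.2, 6.68 and 16.4 FPKM at F5 and at 174, 162 and 113 FPKM at F1. The rise from F5 to F1 was 4.52 on the log2 scale (SE 0.82, adjusted p = 0.0108). The TC libraries stood at 12.3, 11.8 and 18.7 FPKM at F5 and at 112, 27.1 and 26.8 FPKM at F1, where the highest was again replicate 1 and the test did not pass (log2 fold change 2.1, SE 0.65, adjusted p = 0.113). The difference of the change between layers did not pass either.

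The SLC7 family holds the carriers of cationic amino acids, which take up arginine and lysine. SLC7A3 (chromosome 4, 2442204 to 2449913) was called in both GC comparisons, at 7.11, 7.75 and 10.3 FPKM at syf 6 mm, 12.1, 17.9 and 15.5 FPKM at F5 and 33.8, 34.1 and 38.7 FPKM at F1. No library of one stage reached into the range of the next. In GCs this held for 39.0% of all genes tested between syf 6 mm and F5 and for 62.2% between F5 and F1. Its log2 fold changes were 1.19 (SE 0.24, adjusted p = 0.0346) and 1.73 (SE 0.24, adjusted p = 0.00495). In TCs it was at 21.1, 28.6 and 22.2 FPKM at F5 and at 17.5, 10.6 and 7.07 FPKM at F1, and the change differed between layers by 2.68 (SE 0.49, adjusted p = 0.00586). SLC7A1 rose in GCs from 1.5, 4.40 and 3.99 FPKM to 12.4, 12.1 and 13.3 FPKM (log2 fold change 2.93, SE 0.58, adjusted p = 0.0141), again with a larger change than in TCs (difference 3.25, adjusted p = 0.0126). SLC7A2 went the other way in TCs, from 6.31, 7.07 and 6.99 FPKM at syf 6 mm to 2.73, 2.34 and 1.23 FPKM at F5 (log2 fold change -1.58, SE 0.27, adjusted p = 0.0391). In GCs SLC7A2 was at 1.97, 7.21 and 1.61 FPKM at syf 6 mm and 0.358, 0.877 and 1.02 FPKM at F5. DESeq2 called that fall and the main edgeR fit did not. The difference of the change between layers was -0.26 (adjusted p = 0.883 in edgeR). In F1 GCs it was nearly absent, at 0.0399, 0.0291 and 0 FPKM.

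Among the heavy and light chains, SLC3A2, the heavy chain of the large neutral amino acid exchangers, rose in GCs from 46.3, 41.4 and 42.7 FPKM at F5 to 85.6, 82.0 and 116 FPKM at F1 (log2 fold change 1.67, SE 0.22, adjusted p = 0.00412). Its partner SLC7A5 (LAT1), which exchanges leucine and other large neutral amino acids for glutamine, was at 13.3, 52.5 and 51.1 FPKM at F5 and at 11.6, 11.5 and 18.2 FPKM at F1. The rise of SLC3A2 was thus not seen for SLC7A5, whose F5 and F1 libraries overlapped. SLC7A5 was not called in any stage comparison. In GCs of syf 6 mm its libraries were at 3.78, 63.3 and 5.80 FPKM. The high one was replicate 2, the library of that group with few theca markers (77.3 FPKM). In NC TCs of syf 6 mm SLC7A5 was at 15.7, 21.5 and 14.9 FPKM, above the lower GC libraries. The part of theca cells in these values was not tested. The ratio of SLC3A2 to SLC7A5 in FPKM was 6.38 to 7.40 in the F1 GC libraries, 0.788 to 3.48 at F5 and 1.25 to 7.86 at syf 6 mm. In TCs it was 2.88 to 3.41 at F1, 0.955 to 1.35 at F5 and 0.957 to 1.48 at syf 6 mm, so that F1 lay above both earlier stages.

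Averaged over the 27 libraries of a layer, the other light chains of SLC3A2 were lower than SLC7A5, although SLC7A6 exceeded it in single libraries, among them all 3 of bic F1 GCs. SLC7A6, which exchanges cationic for neutral amino acids, was at 12.5, 8.79 and 13.1 FPKM in F5 GCs and at 4.69, 4.94 and 5.63 FPKM in F1 GCs. This fall was not called in the main edgeR fit but was called in edgeR without TMM factors. SLC7A7 had group means of at most 1.41 FPKM and SLC7A10 of at most 1.18 FPKM, and neither was called. SLC3A1, the heavy chain that pairs with SLC7A9 in the kidney, fell in GCs from 2.04, 0.937 and 1.1 FPKM at F5 to 0.0993, 0.226 and 0.0384 FPKM at F1 (log2 fold change -3.27, SE 0.85, adjusted p = 0.0317), and SLC7A9 stayed under 1 FPKM throughout.

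SLC43A2, a facilitated carrier of branched-chain and aromatic amino acids, was the member called in both layers. In GCs it rose from 4.09, 3.52 and 2.76 FPKM at F5 to 8.97, 8.44 and 11.6 FPKM at F1 (log2 fold change 2.02, SE 0.26, adjusted p = 0.00406). In TCs it rose from 6.48, 6.12 and 6.75 FPKM to 13.3, 14.5 and 13.4 FPKM (log2 fold change 1.21, SE 0.11, adjusted p = 0.0137). In neither layer did the libraries of the 2 stages overlap, as for 62.2% of all genes tested in GCs and 33.3% in TCs. Between these NC TC groups leukocyte markers went from 243 to 365 FPKM to 503.7 to 954.7 FPKM. Blood markers went from 17.6 to 27.3 FPKM to 37.1 to 80.9 FPKM, and 1 of the 3 blood markers summed reached 1 FPKM in each library. The part of both in the TC results from F5 to F1 was not tested. The change of SLC43A2 was larger in GCs by 0.87 (SE 0.24, adjusted p = 0.0321). This difference missed the threshold in edgeR with the hen fitted as a block (adjusted p = 0.0529) and without TMM factors (0.246). It also missed it in 8 of 11 fits without 1 sample.

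In all 4 members fell in GCs from F5 to F1. SLC1A7, a glutamate transporter known from the retina in mammals (chromosome 8, 24656564 to 24711346), fell from 0.829, 1.65 and 0.674 FPKM to 0.0108, 0.0311 and 0.0139 FPKM (log2 fold change -5.45, SE 0.67, adjusted p = 0.00361). In TCs it was at 4.93, 5.64 and 3.73 FPKM at F5 and at 5.45, 9.88 and 13.6 FPKM at F1. The difference between layers, -6.49 (SE 0.70, adjusted p = 0.0008), was the largest of those called. SLC6A15, a sodium-dependent carrier of branched-chain amino acids and proline (chromosome 1, 41628233 to 41664415), fell from 6.40, 9.44 and 4.80 FPKM to 0.359, 0.387 and 0.133 FPKM (log2 fold change -4.23, SE 0.62, adjusted p = 0.00586). In TCs it was at 4.24, 3.73 and 2.98 FPKM at F5 and at 0.635, 1.82 and 1.51 FPKM at F1. The stages did not overlap there, as for 33.3% of all genes tested, and the change was called by DESeq2 but not by edgeR (adjusted p = 0.0916). SLC38A6 fell from 3.73, 2.15 and 3.43 FPKM to 0.352, 0.369 and 0.810 FPKM (log2 fold change -1.97, SE 0.48, adjusted p = 0.0259), and SLC3A1 is given above.

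The other members called higher at F1 in GCs were SLC43A3 (log2 fold change 1.20), SLC6A9 (1.38) and SLC1A1, a glutamate and cysteine transporter (2.1). SLC1A1 was outside the rule for named genes and was chosen after its values were seen. In TCs SLC1A6, a glutamate transporter of Purkinje neurons in mammals, fell from 17.6, 15.8 and 10.8 FPKM at F5 to 4.31, 3.36 and 2.80 FPKM at F1 (log2 fold change -1.94, SE 0.26, adjusted p = 0.0182). In GCs it was at 0.384, 1.04 and 0.370 FPKM and 1.59, 1.02 and 1.38 FPKM, and the difference between layers was 3.69 (SE 0.61, adjusted p = 0.00419).

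**Figure D2:**
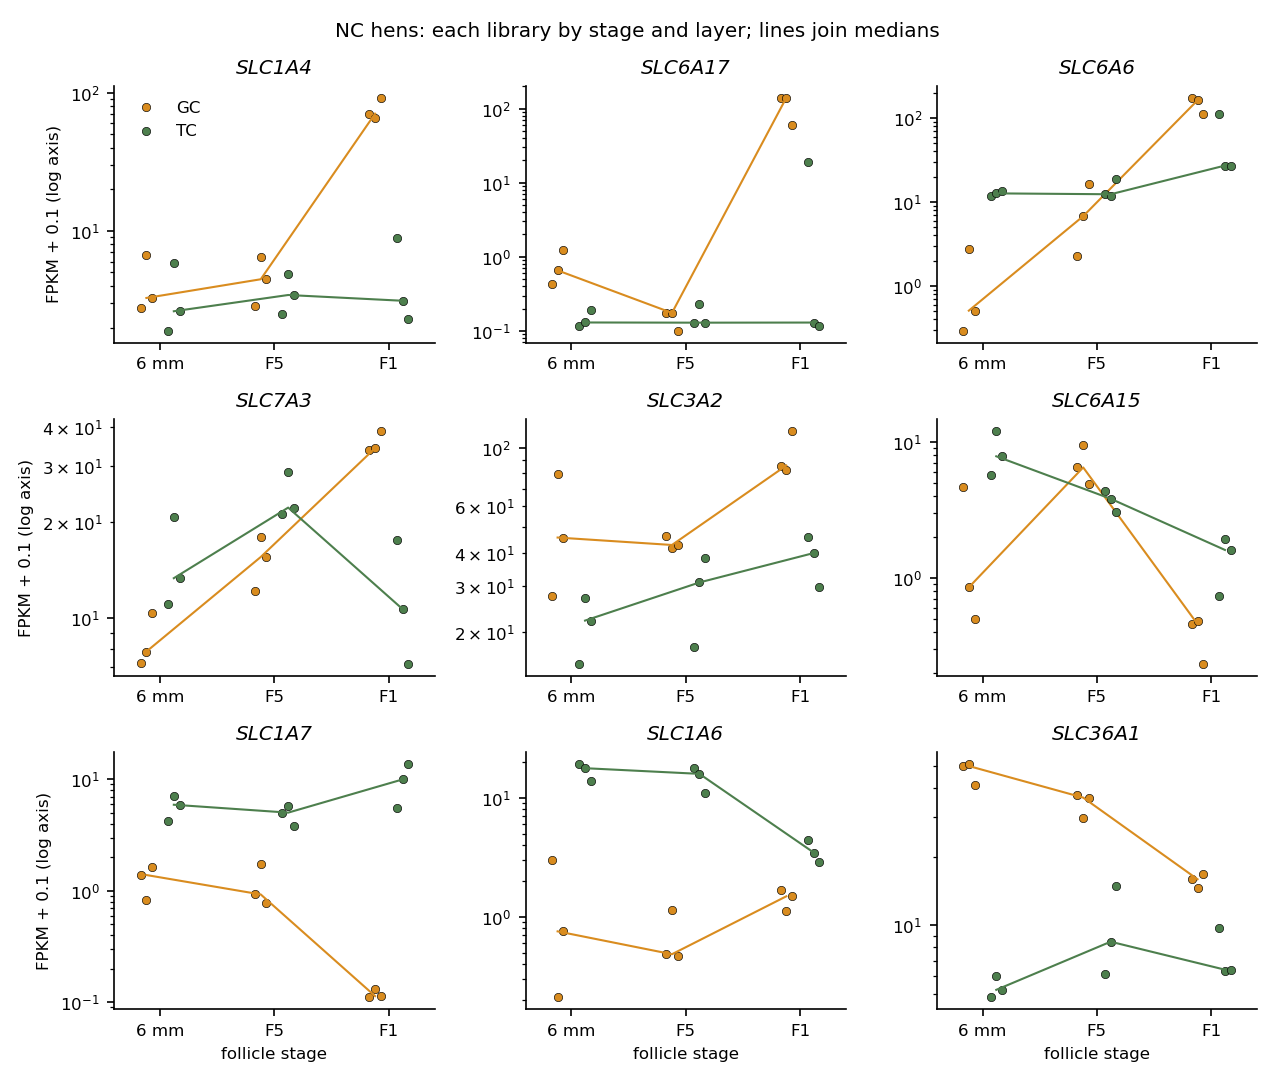
Level of 9 members in each NC library (points, FPKM + 0.1 on a log axis) at syf 6 mm, F5 and F1, with GCs in orange and TCs in green and lines joining the medians of the 3 libraries of a group. In GCs SLC1A4, SLC6A17 and SLC6A6 are highest at F1 and SLC1A7 and SLC6A15 lowest there, while SLC36A1 lies higher in GCs than in TCs at every stage.

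From syf 6 mm to F5 in GCs, SLC6A4, the serotonin transporter, rose from 0.692, 1.21 and 0.961 FPKM to 2.88, 10.4 and 5.67 FPKM (log2 fold change 3.03, SE 0.52, adjusted p = 0.0255). SLC38A2 rose from 45.2, 26.6 and 37.9 FPKM to 64.2, 65.8 and 63.4 FPKM (log2 fold change 1.1, SE 0.24, adjusted p = 0.0387). SLC6A8 rose from 39.1, 39.4 and 35.3 FPKM to 56.7, 61.5 and 48.6 FPKM (log2 fold change 0.88, SE 0.19, adjusted p = 0.0389). The fifth call was SLC1A3, a glutamate and aspartate transporter, with 1.81 (SE 0.44, adjusted p = 0.0492). In TCs SLC38A10 rose from 50.4, 53.8 and 48.0 FPKM to 65.9, 79.1 and 74.0 FPKM (log2 fold change 0.67, SE 0.11, adjusted p = 0.0391). Between these NC TC groups the sum of 4 endothelial markers went from 113 to 149 FPKM to 37.3 to 67.9 FPKM. Leukocyte markers went from 392 to 755 FPKM to 243 to 365 FPKM. Their part in the TC results from syf 6 mm to F5 was not tested. The change from syf 6 mm to F5 was larger in GCs than in TCs for SLC38A2 (difference 1.42), SLC1A3 (2.33) and SLC6A4 (2.88), which were 3 of 43 members tested (6.98%, against 9.57% of all genes). From F5 to F1 the change differed between layers for 11 of 43 members (25.6%, against 19.3% of all genes), 8 with a larger value in GCs and 3 with a smaller one. Without TMM factors this split was 5 and 5.

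These calls differed in how far they depended on single samples. From F5 to F1 in GCs, SLC1A4, SLC6A17, SLC3A2, SLC7A3, SLC6A15 and SLC6A6 remained called without each of the 5 samples and under each alternative setting. The number called was 9 without NC F1 replicate 3. SLC1A7 lost its call without NC F5 replicate 2, where its mean fell under 1 FPKM (adjusted p = 0.00884), and SLC43A2 lost it only when all libraries of the layer were fitted together (0.115). Without either F1 hen the edgeR adjusted p was 0.052 and 0.0587 for SLC7A1, 0.0912 and 0.0691 for SLC1A1, 0.102 and 0.0774 for SLC43A3, and 0.183 and 0.0955 for SLC6A9. The last 2 also missed the threshold without NC F5 replicate 3 (0.086 and 0.116), SLC43A3 without NC F5 replicate 2 (0.0719) and SLC6A9 without NC F5 replicate 1 (0.0515). SLC38A6 missed it without NC F5 replicate 1 or 3 or NC F1 replicates 1 and 2 (0.0621 to 0.0811), and SLC3A1 without any NC F5 replicate or NC F1 replicate 3 (0.0506 to 0.0988). From syf 6 mm to F5 in GCs, no member was called without NC syf 6 mm replicates 1 and 3, the libraries with theca markers, where the log2 fold changes of the 5 genes were 0.74 to 2.73, and none when all libraries of the layer were fitted together. Scaled without TMM factors 1 was called, SLC6A4. Without a single sample 0 to 8 were called, 0 without NC syf 6 mm replicate 3 or NC F5 replicate 2 or 3, 1 without NC syf 6 mm replicate 1, 2 without NC F5 replicate 1, and 8 without NC syf 6 mm replicate 2. In TCs the count from syf 6 mm to F5 was 5 without NC F5 replicate 1 and 0 without any of the other 5 libraries, and from F5 to F1 it was 4 without NC F1 replicate 1, 0 without NC F5 replicate 2 or 3 and 1 without any of the other 3.

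Since the libraries of the NC stages carried the same hen numbers, apart from F1 GCs, which had no library of hen 1, the hen was also fitted as a block. In the comparisons with F1 GCs, between stages and between layers, the block therefore rested on 2 pairs of hens. With this block both TC calls from syf 6 mm to F5 missed the threshold (adjusted p = 0.0852 for SLC38A10 and SLC7A2), as did both from F5 to F1 (0.0810 for SLC43A2 and SLC1A6). In GCs SLC38A2 missed it from syf 6 mm to F5 (0.052), and SLC43A3 (0.0538) and SLC3A1 (0.0815) from F5 to F1.

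**Figure D3:**
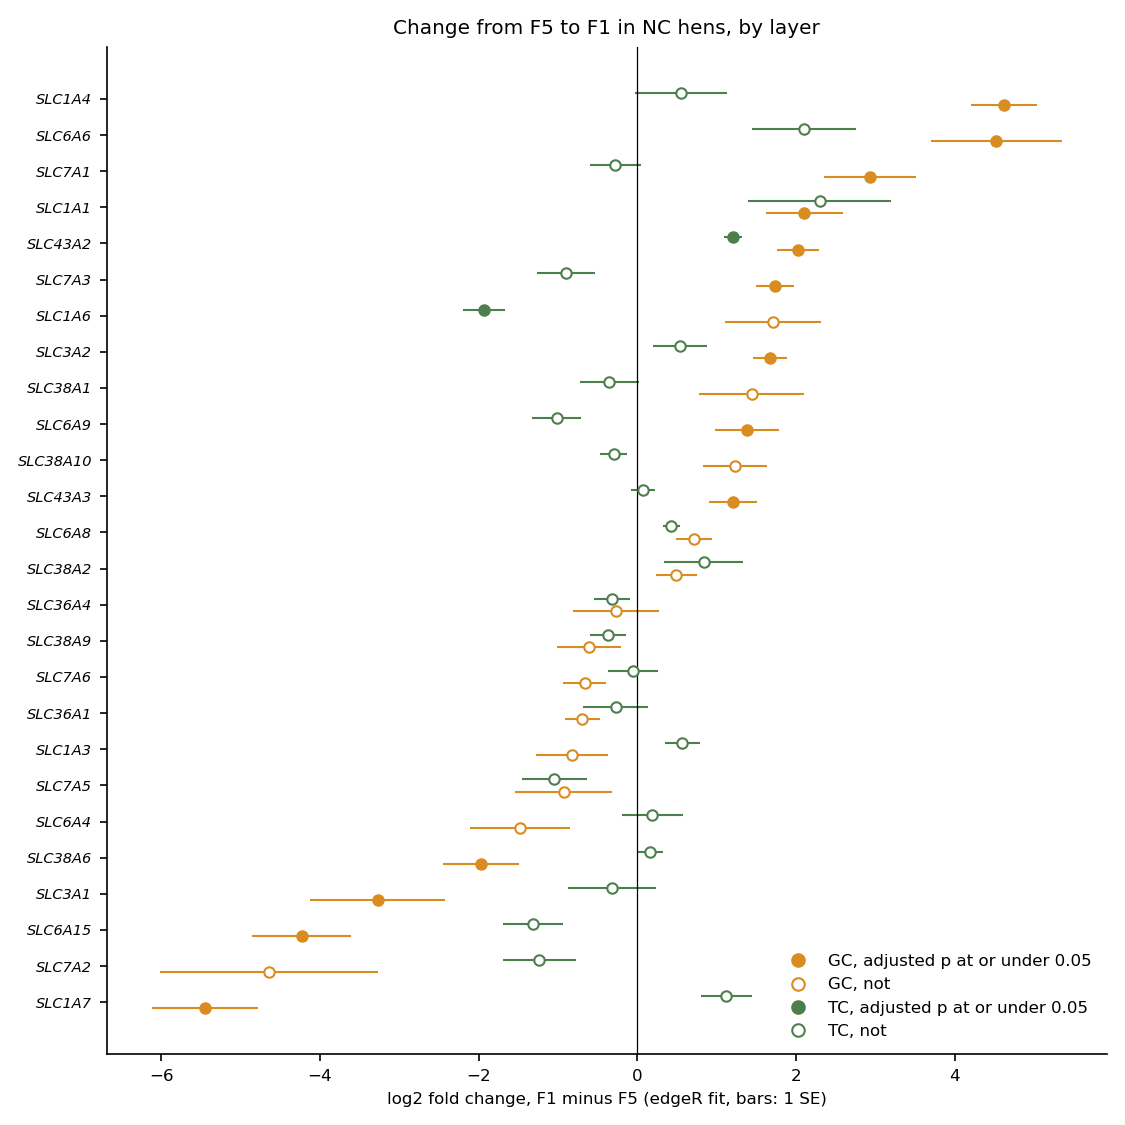
Change from F5 to F1 in NC hens as log2 fold change (horizontal axis, edgeR fit, bars 1 SE) for 26 members tested in both layers, GCs in orange and TCs in green, with filled points for called genes. SLC1A4 (4.62 in GCs) and SLC6A6 (4.52) stand at the top and SLC1A7 (-5.45) at the bottom, and 2 TC points are filled, SLC43A2 and SLC1A6. SLC6A17 was not tested in TCs and is not drawn.

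The layers were compared within each stage of NC hens. At syf 6 mm 10 of 42 members were called, 7 higher in TCs and 3 higher in GCs (23.8%, against 27.0% of all genes). At F5 15 of 39 were called, 8 higher in TCs and 7 higher in GCs (38.5%, against 36%). At F1 10 of 39 were called, 4 higher in TCs and 6 higher in GCs (25.6%, against 37.0%), and without TMM factors the split was 6 and 5. The fitted values at F1 lay 0.40 below the log2 ratios of FPKM. Over the 3 stages 24 members were called at least once, and the matching count over all genes is not given. SLC1A7 and SLC36A1 were called at all 3 stages in 1 direction, and SLC38A10 was called in both directions.

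SLC36A1, a proton-coupled carrier of small amino acids found on lysosomes and at the cell surface (chromosome 13, 12997520 to 13010257), was higher in GCs. At syf 6 mm it was at 50.0, 51.0 and 41.3 FPKM in GCs and 4.72, 5.88 and 5.11 FPKM in TCs (log2 fold change of TCs over GCs -3.29, SE 0.18, adjusted p = 0.00145). At F5 it was at 37.1, 29.5 and 36.3 FPKM against 6.02, 8.37 and 14.8 FPKM (-1.97, SE 0.37, adjusted p = 0.00674). At F1 it was at 15.8, 14.5 and 16.7 FPKM against 9.67, 6.21 and 6.28 FPKM (-1.55, SE 0.29, adjusted p = 0.0157). The layers did not overlap at any stage, as for 55.8% of all genes tested at syf 6 mm, 59.8% at F5 and 68.3% at F1. In GCs the libraries of the 3 stages did not overlap either. The fall from F5 to F1 was not called in the main fit (log2 fold change -0.70, SE 0.22, adjusted p = 0.0536). DESeq2 and edgeR without TMM factors called it. In GCs of syf 6 mm from treated hens SLC36A1 was at 60.0, 51.9 and 61.7 FPKM in mes and at 54.7, 10.6 and 73.5 FPKM in bic, where replicate 2 was low.

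SLC1A7 and SLC1A6 were higher in TCs. SLC1A7 was at 1.29, 0.723 and 1.52 FPKM in GCs of syf 6 mm against 4.11, 7.00 and 5.82 FPKM in TCs (log2 fold change 2.27, SE 0.34, adjusted p = 0.00735). At F5 the value was 2.15 (SE 0.38, adjusted p = 0.00553) and at F1 8.68 (SE 0.62, adjusted p = 0.00344), where the GC libraries were close to 0. SLC1A6 was at 2.90, 0.110 and 0.653 FPKM in GCs of syf 6 mm and 19.1, 17.6 and 13.6 FPKM in TCs (3.71, SE 1.06, adjusted p = 0.0439). Its GC level was highest in replicate 1, and without replicates 1 and 3, the GC libraries with theca markers, the log2 fold change was 7.12. At F5 it was 4.55 (SE 0.51, adjusted p = 0.000944), and at F1 it was not called (0.90, SE 0.30, adjusted p = 0.0644).

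Other members higher in TCs included SLC6A9, at 14.2, 28.5 and 16.9 FPKM at syf 6 mm against 3.95, 3.02 and 2.49 FPKM in GCs (log2 fold change 2.54, SE 0.35, adjusted p = 0.00594), and with 2.48 (SE 0.35, adjusted p = 0.00229) at F5. At F1 the layers overlapped for this gene, at 6.79, 14.1 and 7.65 FPKM in TCs and 7.29, 7.48 and 5.91 FPKM in GCs. SLC43A3 was at 16.0, 17.6 and 16.9 FPKM in TCs of F5 against 4.28, 3.97 and 3.73 FPKM in GCs (2.05, SE 0.18, adjusted p = 0.000409), the smallest p of the members at that stage. SLC38A6 was at 6.03, 6.76 and 8.66 FPKM in TCs of F1 against 0.352, 0.369 and 0.810 FPKM in GCs (3.26, SE 0.43, adjusted p = 0.00855). SLC6A14, a broad carrier of neutral and cationic amino acids, was at 1.78, 0.747 and 3.15 FPKM in TCs of F5 and at 0.0452, 0.0176 and 0.0205 FPKM in GCs (5.73, SE 0.76, adjusted p = 0.00181), a size that rests on few counts in GCs. It was also called at F1, at 3.95, 4.41 and 7.18 FPKM in TCs and 0.192, 0.112 and 0 FPKM in GCs. SLC6A8 was called at syf 6 mm, at 98.7, 75.6 and 74.2 FPKM in TCs and 39.1, 39.4 and 35.3 FPKM in GCs.

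Higher in GCs at F1 were SLC7A1 (log2 fold change of TCs over GCs -2.60, SE 0.34, adjusted p = 0.00846), SLC3A2 (-1.76, SE 0.27, adjusted p = 0.0107), SLC1A4 (-4.46, SE 0.73, adjusted p = 0.0126) and SLC7A3 (-2.01, SE 0.43, adjusted p = 0.0212). All were among the genes that rose from F5 to F1 in GCs, and the comparisons share the F1 GC libraries. At F5 SLC1A3 (-1.97), SLC38A2 (-0.92) and SLC6A4 (-2.62) were higher in GCs, where TC replicates 2 and 3 were the libraries with INHA at 288 and 601 FPKM. At syf 6 mm SLC6A13, a GABA and taurine carrier, and SLC38A11 were called higher in GCs, with unequal libraries. SLC6A13 was at 0.146, 2.87 and 0.905 FPKM and SLC38A11 at 0.468, 0.392 and 6.97 FPKM. In TCs SLC38A11 was at 0.0309, 0.0340 and 0 FPKM. Oocyte markers stood at 24.6, 33.7 and 139.0 FPKM in the same GC libraries and at 0.383 to 0.445 FPKM in the TCs. Replicate 3 was thus highest for these markers and for SLC38A11, while SLC6A13 was highest in replicate 2. The part of oocyte RNA was not tested. In edgeR SLC38A11 missed the threshold without GC replicate 3 (adjusted p = 0.0642) and SLC6A13 without GC replicate 2 (0.0908) or 3 (0.0703), and both without any 1 of the TC libraries.

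**Figure D4:**
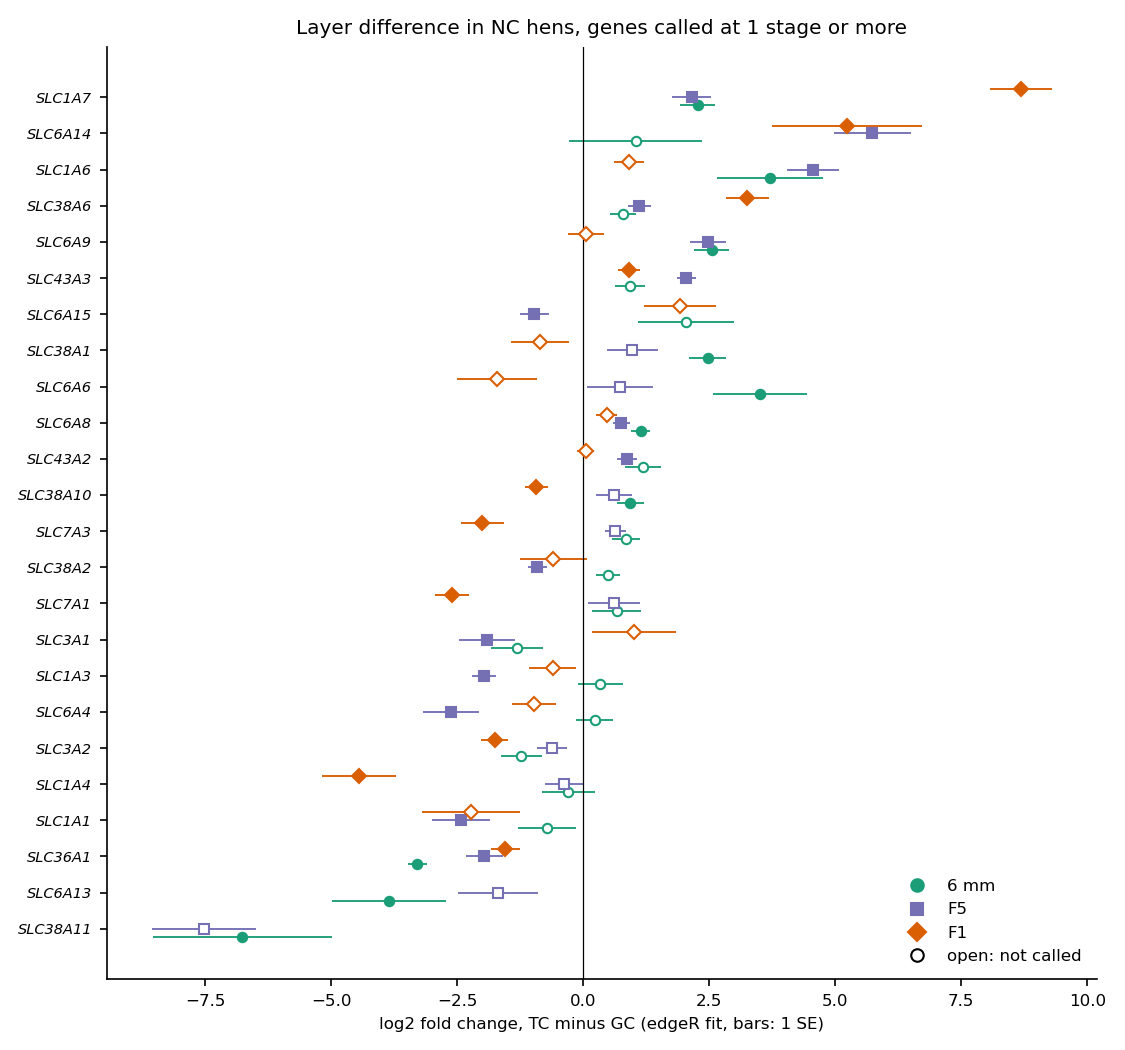
Difference between TCs and GCs of NC hens as log2 fold change (horizontal axis, TC minus GC, edgeR fit, bars 1 SE) at syf 6 mm (green circles), F5 (purple squares) and F1 (orange diamonds) for the 24 members called at 1 stage or more, with open symbols where the gene was not called. SLC1A7 lies right of 0 and SLC36A1 left of 0 at each stage, and the F1 diamonds of SLC1A4, SLC3A2, SLC7A1 and SLC7A3 lie left of their other stages.

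Among the SLC38 members the layers differed at single stages. SLC38A1, a glutamine carrier, was at 15.1, 16.7 and 16.9 FPKM in TCs of syf 6 mm against 3.18, 1.39 and 5.45 FPKM in GCs (2.47, SE 0.37, adjusted p = 0.00738), and was not called at F5 or F1. SLC38A10 was higher in TCs at syf 6 mm (0.93, SE 0.27, adjusted p = 0.0469) and higher in GCs at F1 (-0.93, SE 0.23, adjusted p = 0.0297), with 76.7, 75 and 83.2 FPKM in GCs and 57.7, 60.5 and 45.1 FPKM in TCs at F1. Without TMM factors neither of these 2 calls held. SLC38A9, a lysosomal arginine sensor of the mTORC1 pathway, had group means of 0.886 to 4.53 FPKM and was called by edgeR in no comparison, while DESeq2 called it for mes against NC in GCs of syf 6 mm.

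Leaving out single libraries moved these counts. At syf 6 mm 5 members were called without any 1 of the 3 TC libraries and 16 without GC replicates 1 and 3 together. At F1 the count was 5 without TC replicate 2, 6 without TC replicate 3 and 7 to 13 without another sample. Without TC replicate 2 or 3 SLC36A1 missed the threshold at F1 (adjusted p = 0.0533 and 0.0537 in edgeR), and SLC7A3 did so without TC replicate 2 (0.0699) or either GC hen (0.0561 and 0.0611). SLC1A6 and SLC6A6 at syf 6 mm missed it without GC replicate 3 (0.108 and 0.0932) or any 1 of the TC libraries, and SLC38A2 and SLC6A8 at F5 without TC replicate 2 (0.0535 and 0.0502). SLC1A1, SLC3A1 and SLC6A15 at F5 and SLC43A3, SLC38A10 and SLC6A14 at F1 missed it in 3 or more such fits. SLC36A1, SLC6A9, SLC1A7, SLC38A1 and SLC6A8 at syf 6 mm, SLC1A6, SLC43A3, SLC6A14, SLC6A9, SLC1A3, SLC1A7, SLC36A1, SLC38A6, SLC6A4 and SLC43A2 at F5, and SLC1A7, SLC7A1, SLC38A6, SLC3A2 and SLC1A4 at F1 remained called in every fit. With the hen as a block, SLC38A11 (adjusted p = 0.133), SLC1A6 (0.0590), SLC38A10 (0.0692) and SLC6A13 (0.0709) missed the threshold at syf 6 mm. At F5 SLC1A1 (0.0571) and SLC3A1 (0.0532) missed it, and at F1 SLC43A3 (0.105), SLC38A10 (0.0726) and SLC6A14 (0.125).

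The drug groups were compared with NC at each stage and layer to ask whether blocking or activating the androgen receptor moved these genes. In edgeR 0 members were called in any of the 12 comparisons. In GCs the share of all genes called was 0.0% in each comparison but bic at F1, where it was 1.17% (199 of 17054 genes). In TCs it was 0.0296% for bic and 0.0354% for mes at syf 6 mm, 0.0% for bic and 0.0122% for mes at F5, and 0.0% for both at F1. At an unadjusted p under 0.05 there were 3 members for bic and 7 for mes in GCs at syf 6 mm, 5 and 3 at F5, and 14 and 4 at F1. Over all genes the shares at that threshold were 4.66% and 23.3%, 9.70% and 15.2%, and 26.5% and 20.5%. In TCs there were 1 and 3 members at syf 6 mm, 3 and 7 at F5, and 7 and 8 at F1, with 3.72% and 5.05%, 2.97% and 10.1%, and 9.08% and 8.59% of all genes. For DESeq2 no share of all genes is given here. It called 0 and 6 members in GCs at syf 6 mm, 1 and 0 at F5, and 12 and 3 at F1. In TCs it called 4 and 2 at F1 and 0 elsewhere. These values do not show that the treated hens were like NC hens, since 3 hens or fewer stood on each side.

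In the F1 GCs bic was 1 hen. There 27 of 38 members did not overlap between bic and NC libraries, against 68.3% of all 17054 genes tested. Between mes and NC it was 12 of 33 members, against 41.9% of all 14769 genes. The summed level of bic was 486 to 492 FPKM in 3 libraries against 724.9 to 817.7 FPKM in NC and 543 to 664 FPKM in mes. A large part of the gap between bic and NC lay in SLC6A6, SLC6A17 and SLC1A4. Each of these was lower in all bic libraries than in any NC library. Of the 38 members tested, 18 had a higher and 20 a lower fitted value in bic. The sum therefore does not show a lower level of the members in general. SLC6A17 was at 0.341, 0.205 and 0.302 FPKM in bic and at 0.0945, 13.0 and 0.0481 FPKM in mes, against 59.7 to 139.9 FPKM in NC. No treated library reached the NC range. The log2 fold change of bic against NC was -8.58 (SE 0.92) with an adjusted p of 0.0547, the smallest of the members, in a fit that takes the lone bic hen to vary like the NC hens.

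SLC6A6 was at 24.4, 24.5 and 23.2 FPKM in bic and at 12.9, 56.6 and 30.6 FPKM in mes against 174, 162 and 113 FPKM in NC (log2 fold change -2.73 for bic, adjusted p = 0.0663, and -2.27 for mes, adjusted p = 0.176). SLC7A3 was at 7.90, 8.30 and 7.22 FPKM in bic and at 5.89, 29.9 and 9.27 FPKM in mes, with NC at 33.8, 34.1 and 38.7 FPKM. SLC43A2 was at 1.78, 1.81 and 1.58 FPKM in bic and 4.67, 19.5 and 2.09 FPKM in mes against 8.44 to 11.6 FPKM in NC. SLC3A2 stood at 48.7, 46.4 and 50.1 FPKM in bic, below NC at 82.0 to 116 FPKM, and at 105, 94.9 and 74.7 FPKM in mes, which overlapped NC. For SLC1A4, SLC6A6, SLC7A3, SLC43A2 and SLC6A17, mes replicate 2 was the highest of the mes libraries. Without that sample 5 members were called for mes against NC in place of 0, and no share of all genes is given for that fit.

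Some members were higher in treated F1 GCs, without a call in the main edgeR fit. DESeq2 called SLC7A6, SLC1A1, SLC38A6 and SLC6A15 higher for bic and SLC6A8 and SLC6A4 higher for mes. SLC6A15 was at 3.11, 2.81 and 2.99 FPKM in bic against 0.133 to 0.387 FPKM in NC. SLC6A4 was at 52.2, 1.83 and 9.80 FPKM in mes, which overlapped NC at 0.957 to 2.27 FPKM. SLC7A6 was at 19.5, 18 and 18.9 FPKM in bic and 18.2, 8.23 and 11.6 FPKM in mes against 4.69, 4.94 and 5.63 FPKM in NC (log2 fold changes 1.66 and 1.00, adjusted p = 0.0874 and 0.212). SLC38A2 was at 132, 131 and 129 FPKM in bic against 51.0 to 81.3 FPKM in NC. SLC6A8 was at 175, 118 and 149 FPKM in mes against 55.1 to 75.9 FPKM in NC (log2 fold change 0.90, SE 0.28, adjusted p = 0.185). SLC1A1 was at 11.7, 10.4 and 11.0 FPKM in bic and SLC38A6 at 3.63, 3.35 and 3.12 FPKM, with NC at 3.03 to 4.03 FPKM and 0.352 to 0.810 FPKM. When each library was kept as a replicate, as if the 3 bic libraries were 3 hens, 19 members were called for bic against NC in F1 GCs. No share of all genes is given for that fit. The 1 hen and the drug cannot be told apart in that group.

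**Figure D5:**
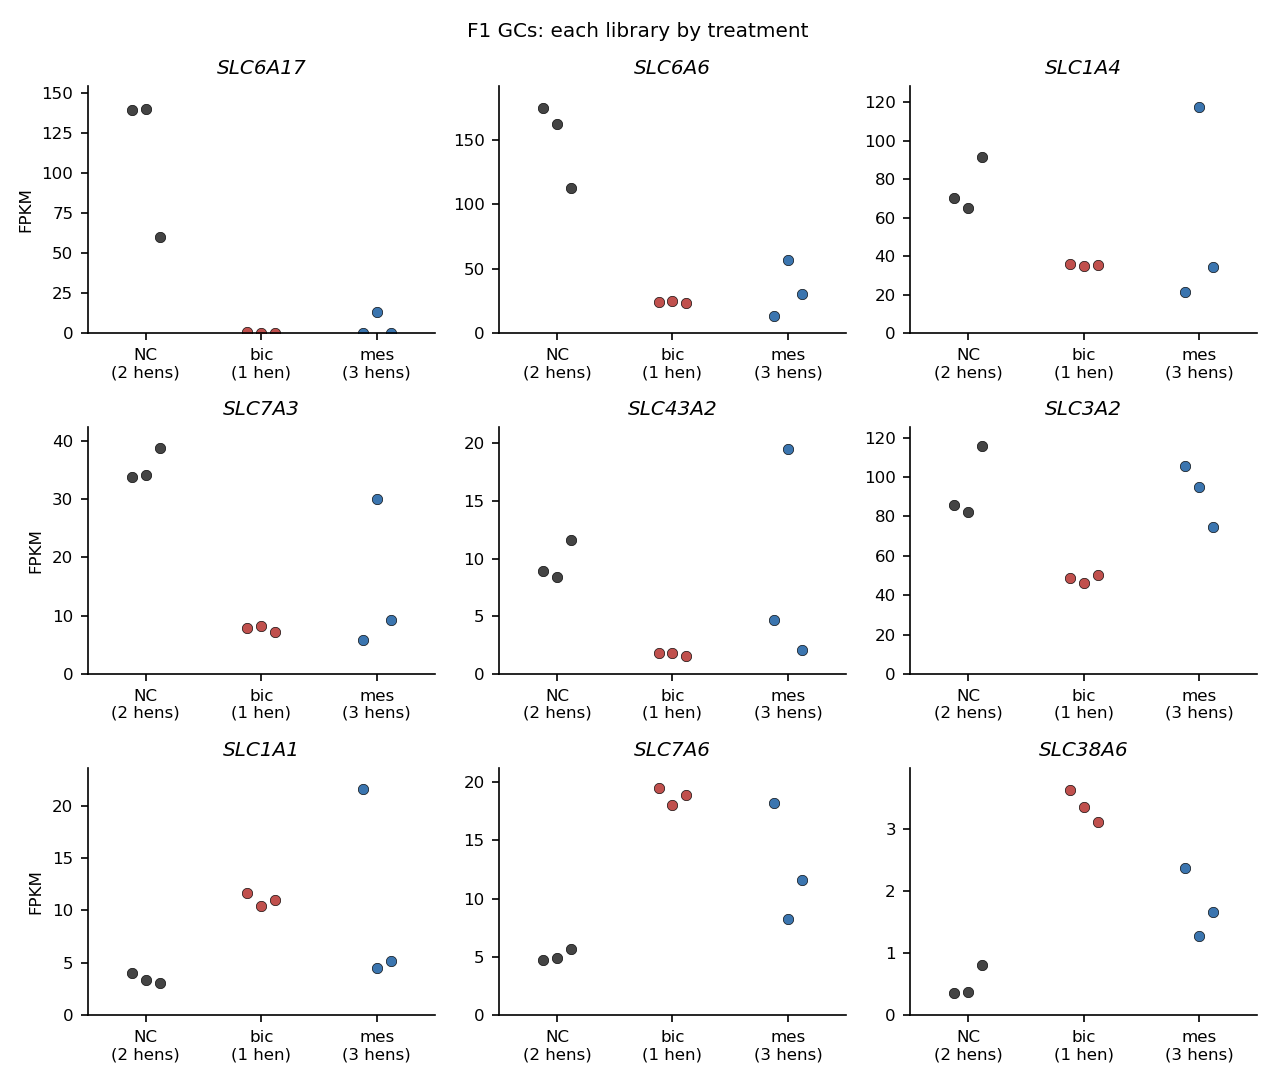
FPKM of 9 members in each F1 GC library (vertical axis, linear from 0), with NC in black (2 hens), bic in red (1 hen) and mes in blue (3 hens). In SLC6A17, SLC6A6, SLC7A3 and SLC43A2 the 3 bic libraries lie below all NC libraries, in SLC1A1, SLC7A6 and SLC38A6 above them, and mes replicate 2 stands apart from the other mes libraries in SLC1A4, SLC7A3 and SLC43A2. The bic and NC libraries did not overlap in 68.3% of all genes tested.

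In the TCs of F1 SLC1A6 differed between bic and NC hens in its libraries. It was at 18.4, 20.6 and 13.3 FPKM in bic, of which the first 2 libraries came from 1 hen, at 4.31, 3.36 and 2.80 FPKM in NC and at 1.91, 2.49 and 2.09 FPKM in mes. The bic libraries overlapped the NC TCs of F5 (10.8 to 17.6 FPKM) and did not overlap the F1 libraries of NC or mes. Between bic and NC in these TCs 10 of 38 members did not overlap, against 25.3% of all 16829 genes tested. The log2 fold change of bic against NC was 2.07 (SE 0.29) and its adjusted p in edgeR was 0.240, while DESeq2 called it (adjusted p = 2.1e-07). SLC38A6 was at 15.8, 11.1 and 14.5 FPKM in mes and 10.5, 11.9 and 14.0 FPKM in bic against 6.03, 6.76 and 8.66 FPKM in NC (log2 fold changes 0.85 and 0.71, adjusted p = 0.449 and 0.500). SLC6A9, SLC6A15 and SLC43A3 were within overlapping ranges between NC and at least 1 of the drug groups.

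Before F1, 2 treated GC libraries with unusual markers stood apart from their group. In bic GCs of syf 6 mm replicate 2 held SLC38A2 at 268 FPKM against 41.9 and 30.9 FPKM in the other libraries and SLC6A6 at 67.0 FPKM against 3.02 and 0.492 FPKM. This library correlated best with bic GCs of F1 (rho 0.885, against 0.809 with its own group). It held blood markers at 67.3 FPKM, with 1 of the 3 summed reaching 1 FPKM, against 0.375 and 1.57 FPKM in the others. Leukocyte markers were at 363 FPKM, against 18.3 and 158 FPKM in the others. In bic GCs of F5 replicate 2, with theca markers at 10654 FPKM, held SLC1A6 at 10.4 FPKM, SLC6A9 at 10.3 FPKM and SLC36A1 at 10.9 FPKM, against 0.873 and 2.27 FPKM, 0.697 and 2.32 FPKM and 30.4 and 25.9 FPKM in the others. These 3 values lay on the TC side of the NC layer differences. SLC7A5 in GCs of F5 was at 113, 11.0 and 109 FPKM in bic and 98.7, 118 and 39.1 FPKM in mes, against 13.3, 52.5 and 51.1 FPKM in NC, with overlap.

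Genes that sense or use amino acids were read beside the transporters from 3 lists. The amino acid response list covers the response to amino acid shortage through the kinase EIF2AK4 and the factor ATF4. The list also holds the kinase EIF2AK3 and the factors ATF3 and CEBPB, and whether amino acids ran short was not tested. From F5 to F1 in GCs 6 of its 13 tested genes rose and 1 fell, where 29.6% of all genes were called. CHAC1, which degrades glutathione, went from a mean of 2.61 to 107.7 FPKM (log2 fold change 5.84, SE 0.32, adjusted p = 0.000787), ASNS, the asparagine synthetase, from 20.2 to 45.3 FPKM (1.52, SE 0.24, adjusted p = 0.00741), and CEBPB from 16.8 to 183.9 FPKM (3.92, SE 0.45, adjusted p = 0.00294). The fall was that of EIF2AK4 itself, from 7.67 to 1.28 FPKM (-2.10, SE 0.48, adjusted p = 0.0218). The list's median was 1.26 against -0.15 over all genes. In TCs 2 of 13 rose, CHAC1 (4.12) and SESN2 (1.06), where 6.2% of all genes were called. For bic against NC in F1 GCs, 3 of 13 fell, CHAC1 (-7.95), ATF3 (-6.91) and CEBPB (-5.33), each with an adjusted p of 0.0498 and 1 bic hen, where 1.17% of all genes were called.

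Of the list on glutamine, glutamate and glutathione, 6 of 17 tested genes rose and 3 fell from F5 to F1 in GCs, where 29.6% of all genes were called. ODC1, the first enzyme of polyamine synthesis, went from 41.0 to 527.7 FPKM (4.17, SE 0.37, adjusted p = 0.00168) and GLUL, the glutamine synthetase, from 0.683 to 12.6 FPKM (4.69, SE 0.96, adjusted p = 0.0155). CTH, which makes cysteine from cystathionine, fell from 22.5 to 5.68 FPKM (-1.52, SE 0.26, adjusted p = 0.00901). Of the mTORC1 sensing list, 3 of 16 rose (SESN1, FNIP1 and NPRL3) and 1 fell (DEPDC5) in that comparison, a share below that of all genes. In the other comparisons of stages and layers 0 to 10 genes of a list were called, where 6.2% to 37.0% of all genes were. In the comparisons with treated hens other than bic in F1 GCs 0 were called, where the share of all genes was at most 0.0354%.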

How the data were processed

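RNA-seq of 54 GC and TC libraries was analysed as 18 groups of 3 libraries. Reads of 150 bp in pairs from a kit that does not keep the strand had been trimmed with Cutadapt, aligned with HISAT2 (2.1.0) and passed to StringTie (1.3.4d) on the NCBI annotation of Gallus_gallus-5.0 by the authors, with versions from the submitters' processing notes. The deposited counts per gene had been derived by the authors from StringTie coverage with a read length of 75, so that 1 read pair can add more than 1 count. The transcript tables as deposited give other values, coverage, FPKM and TPM, and FPKM was summed here over the transcripts of a gene. Of the 26624 rows of the count table, 5 named no gene (at most 0.605% of a library's counts) and were left out.

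Libraries of 1 hen were summed (FPKM averaged). Counts were fitted with edgeR (4.0.16, R 4.3.3) on the compared groups only, with filterByExpr, TMM factors, the quasi-likelihood test and Benjamini-Hochberg adjustment over all genes tested. A call needed an adjusted p no higher than 0.05 and a mean of at least 1 FPKM in a compared group. All adjusted p-values are from edgeR unless DESeq2 (1.42.0) is named. SE is the log2 fold change divided by the root of its F value. With 1 hen in a group, that hen was taken to vary like the other group. P-values measure the spread between 2 or 3 hens a group.

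Members and lists were chosen with earlier results of these data known. Named with values were the 8 members with the highest mean in each layer and the 4 called members with the smallest p in each direction of each comparison. The partners of heavy and light chain pairs and the SLC38 members were named too. An exception was SLC43A3 between layers at F1, for which no levels or fold change are given. Members under 1 FPKM in every group were named only, and some genes of the lists are not reported here. SLC7A8 was not among the matched symbols.

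Hen numbers come from the library names and were taken to mark the same animal within a treatment. On that reading stages and layers of NC are paired, apart from hen 1, which had no F1 GC library. Between treatments only the number is shared. Over 14688 genes, deviations of same-numbered libraries correlated above 0.1 in every pair in 2 of 4 stage comparisons (range -0.149 to 0.25), 0 of 3 layer comparisons (0.0256 to 0.178) and 1 of 11 treatment comparisons (-0.372 to 0.274). Alternatives were RLE factors, no filter, DESeq2, all libraries of a layer in 1 fit, each library as a replicate, the hen block, an added log2 fold threshold of 1.5, and fits without single samples or NC syf 6 mm GC replicates 1 and 3. Library totals without TMM, and for the difference between layers the fits with a block or without samples, were added after seeing the data. The fit was tested on simulated data for 3 comparisons. For syf 6 mm against F5 in GCs its share of false calls was above the nominal 0.05, and the criterion for passing was relaxed after this was seen, so calls near the threshold in that comparison are less certain than their adjusted p states.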

Additional observations from a re-analysis of the deposited data

Results flagged for a closer look

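The change between stages in NC hens differed between GCs and TCs for 14 results, by the interaction term in edgeR. Each value is the change in GCs minus that in TCs on the log2 scale, with an adjusted p of at most 0.05 over all genes. From syf 6 mm to F5 the difference was 1.42 for SLC38A2, 2.33 for SLC1A3 and 2.88 for SLC6A4. Each of these 3 missed the threshold without NC TC syf 6 mm replicate 2 (adjusted p = 0.0517, 0.0644 and 0.0531) and without replicate 3 of that group (0.0550, 0.0540 and 0.0630). Of 12 fits without 1 sample, SLC38A2 passed in 9, SLC1A3 in 7 and SLC6A4 in 5. SLC38A2 and SLC1A3 also missed it without NC TC F5 replicate 2, and SLC1A3 and SLC6A4 without replicate 3 of that group or without replicate 2 of the F5 GCs. SLC6A4 missed it further without NC syf 6 mm replicate 1 of either layer or replicate 3 of the GCs (0.0504 to 0.0622 over these). Without NC GC syf 6 mm replicates 1 and 3 together SLC6A4 had 0.149.

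From F5 to F1 the difference was positive for SLC1A4 (4.11), SLC1A6 (3.69), SLC7A1 (3.25), SLC7A3 (2.68), SLC6A9 (2.46), SLC38A10 (1.58), SLC43A3 (1.19) and SLC43A2 (0.87). It was negative for SLC1A7 (-6.49), SLC6A15 (-2.84) and SLC38A6 (-2.1). Scaled to library totals without TMM, SLC43A3 (adjusted p = 0.0627), SLC43A2 (0.246) and SLC38A10 (0.0922) missed the threshold. With the hen as a block SLC43A2 (adjusted p = 0.0529) and SLC38A10 (0.0685) missed the threshold. Both also missed it in 8 of the 11 fits without 1 sample, and SLC6A15 in 4 of them (NC TC F5 replicate 2 or 3, NC TC F1 replicate 3 and NC GC F1 replicate 3, 0.0502 to 0.0583).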

How the results depend on the processing

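Of 72 called member results, 33 were called under every alternative and without every sample, and 0 changed direction. Counted once for each called result in each other setting, there were 952 checks, of which 752 kept the call. A single refit counts once for every called member in it. Shares of all genes called are given for the main fits only, so counts in other settings are not set against them. The cause of each move below was not tested, other than that DESeq2 is another model and that left-out fits hold fewer samples.

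From syf 6 mm to F5 in GCs, where 5 members were called, there were 1 with library totals without TMM, 3 without the filter, 0 with all libraries of the layer in 1 fit, 0 without NC syf 6 mm replicates 1 and 3, 2 with the fold threshold and 0 to 8 without a single sample. From F5 to F1 in GCs (14 called) leaving out a sample gave 9 to 13. In TCs from syf 6 mm to F5 (2 called) DESeq2 gave 7, the fold threshold 1 and leaving out a sample 0 to 5. In TCs from F5 to F1 (2 called) DESeq2 gave 8, all libraries in 1 fit 8, the fold threshold 1 and leaving out a sample 0 to 4. Between layers at syf 6 mm (10 called) DESeq2 gave 16, the fit without NC GC replicates 1 and 3 gave 16 and leaving out a sample 5 to 11. At F1 (10 called) leaving out a sample gave 5 to 13. For the difference between layers from syf 6 mm to F5 (3 called) DESeq2 gave 7 and leaving out a sample 0 to 6, with 0 without NC TC syf 6 mm replicate 2 or 3 and 6 without NC GC syf 6 mm replicate 2.

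Against NC, where 0 members were called, DESeq2 gave 6 for mes in GCs at syf 6 mm, 1 for bic in GCs at F5, 12 for bic and 3 for mes in GCs at F1, and 4 for bic and 2 for mes in TCs at F1. Each library as a replicate gave 19 and 1 in GCs at F1 and 1 for bic in TCs at F1. All libraries in 1 fit gave 5, 1 and 1 there, and no filter gave 5 for bic in GCs at F1. Leaving out a sample gave 0 to 8 for mes in GCs at syf 6 mm (8 without NC replicate 2) and 0 to 5 at F1 (5 without mes replicate 2).

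With the replicate block, stage calls in TCs went from 2 to 0 in each comparison and those in GCs from 5 to 5 and from 14 to 16. Layer calls went from 10 to 7 at syf 6 mm, 15 to 14 at F5 and 10 to 10 at F1. In the comparisons with NC F1 GCs the block rested on 2 pairs of hens. Between treatments the block gave 0 calls, and no paired analysis was possible for bic in GCs at F1 because bic was 1 hen. The depth of 33513156 counts or more limits members under 1 FPKM, whose fitted sizes rest on few counts.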
